A study of Mus musculus with 6 samples.

Results

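Pericytes and vascular smooth muscle cells, the mural cells that wrap blood vessels, were taken from single-cell RNA-seq of the mouse Achilles tendon after tenotomy, a surgical cut of the tendon that leads to bone in the tendon. They were chosen among barcodes with at least 1000 UMIs (unique molecular identifiers, each counting 1 RNA molecule), at least 200 genes and at most 5% mitochondrial UMIs. A member held 3 or more UMIs of Rgs5, Notch3 and Myh11 together and none of Pdgfra (mesenchymal cells), Cdh5 (endothelial cells) or Ptprc (immune cells). The rule found 3188 of 63329 kept barcodes, or 5.03%, from 84194 deposited barcodes in 6 libraries. Of these, 2219 held Myh11 and are called smooth muscle cells, and 969 held no Myh11 UMI and are called pericytes. The names stand for the split by Myh11 alone.

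All mice carried Gli1-CreERT2, a Cre recombinase driven by the Gli1 gene and switched on by tamoxifen, and the Ai9 reporter, which turns red after recombination. All received tamoxifen. Tendons were collected uninjured, at 7 dpi (days post injury) and at 21 dpi, and sorted into reporter-positive (Gli1+) and reporter-negative (Gli1-) cells, with 1 library for each of the 6 conditions. The reporter marks cells that used Gli1 when tamoxifen was given and all their progeny, not cells that hold the transcript now. Each library pools cells of several mice with no map from cells to mice, so no comparison below has a replicate or a test, intervals cover counting error only, and a difference between libraries cannot be told apart from a difference between preparations.

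Pericytes share the basement membrane of capillaries, and smooth muscle cells form the muscular wall of arterioles and larger vessels. Both grow under PDGF-B from the endothelium acting on the receptor PDGFRB, and NOTCH3 holds them in the mural fate. Smooth muscle contracts through actin and myosin when calcium enters the cell, and relaxes through cyclic GMP, cyclic AMP and potassium channels. After injury, mural cells are known to lose contractile proteins and to make matrix. RGS5 shortens signals of G protein-coupled receptors, and MYH11 is the myosin heavy chain of smooth muscle.

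The label was checked with Acta2 and Myl9, which the rule did not use and which encode smooth muscle actin and a myosin light chain. At least 1 of them was seen in 2826 of the 3188 cells (88.6%). As other cells also hold Acta2 UMIs, shares were compared at 2000 UMIs per cell, with cells under that depth left out. There Acta2 was seen in 52.0% to 81.0% of the members of a library, against 3.09% to 21.3% of endothelial and 0.843% to 36.3% of mesenchymal cells. The endothelial and mesenchymal cells that the set is compared with held no UMI of the rule genes. Their low level of mural genes is in part set by that choice, so the comparison is not an independent check. In the Gli1- uninjured library it kept 601 of 2631 cells with 2 or more Cdh5 UMIs and none of Pdgfra or Ptprc. Rgs5 was seen in 2938 cells, Notch3 in 2544 and all 3 rule genes in 1737, while 311 cells were chosen on Rgs5 alone, 59 on Notch3 alone and 42 on Myh11 alone. The Gli1+ uninjured library holds 23 of the 59 cells chosen on Notch3 alone, among its 54 pericytes, so its pericytes are the least secure. There the cells with exactly 3 UMIs of the rule genes held 6.3 CPM of Acta2 and those with 2, just outside, 34.5 CPM (19 and 31 cells). In the Gli1- uninjured library these cells held 156 and 157 CPM (93 and 238 cells), and in the Gli1- 21 dpi library 1542 and 345 CPM (30 and 125 cells). The cells next to the threshold thus have a mural actin level in some libraries and little of it in others.

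The kept cells of a library held 63028869 to 122925714 UMIs. The median member held 2453, 5142 and 6992 UMIs in the Gli1- libraries (uninjured, 7 dpi, 21 dpi) and 6542, 3775 and 7230 in the Gli1+ libraries. Sex differed with time as well. In the Gli1- libraries, Xist, the RNA of the inactive X chromosome, was seen without Y-linked genes in 0, 0 and 875 members, and Y-linked genes without Xist in 389, 286 and 1. In the Gli1+ libraries these counts were 64, 0 and 542 for Xist and 41, 114 and 1 for Y-linked genes. The labels state equal numbers of both sexes, so time and sex of the cells cannot be told apart here, except between uninjured and 7 dpi in the Gli1- libraries, where no member held Xist at either time. RNA of other cells also differed. The summed level of 8 epidermal genes in the members was 38.5, 714 and 55.5 CPM in the Gli1- libraries, against 5318, 14712 and 2414 CPM in the Gli1+ ones, and 129 of 219 members at Gli1+ 7 dpi had over 0.5% of their UMIs in them. The 10 fibroblast and tendon genes summed to 3357, 9700 and 6779 CPM in the Gli1- members, against 631, 9200 and 6282 CPM in the Gli1+ ones. The 8 endothelial genes summed to 1293, 323 and 685 CPM in the Gli1- members, against 350, 225 and 600 CPM in the Gli1+ ones. Of the Gli1- members 14.9%, 2.03% and 1.48% had over 0.5% of their UMIs in the endothelial genes, so such RNA was highest in uninjured Gli1- members. For that reason a stricter set of 2425 cells, with at least 2 of the rule genes seen and cells with other cells' RNA left out, was compared beside the whole set. It keeps 582, 393 and 809 Gli1- and 102, 57 and 482 Gli1+ cells. Other cells' RNA is mostly less but not gone there. The fibroblast and tendon genes summed to 2701, 7302 and 5022 CPM (Gli1-) and 731, 7772 and 4611 CPM (Gli1+). The epidermal genes summed to 3052 CPM at Gli1+ 7 dpi, and the endothelial genes to 651, 298 and 686 CPM in Gli1- cells. Between pairs of libraries, 27 to 75 barcode sequences were shared, none of them a member in both.

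Mural cells made up a larger part of the Gli1- cells than of the Gli1+ cells at each time. In the Gli1- libraries the share of kept cells was 6.65% (95% exact binomial interval 6.21 to 7.10, 805 cells) in uninjured tendon, 4.51% (4.13 to 4.92, 492 cells) at 7 dpi and 7.88% (7.41 to 8.38, 949 cells) at 21 dpi. In the Gli1+ libraries it was 1.80% (1.51 to 2.12, 135 cells), 2.18% (1.90 to 2.48, 219 cells) and 5.50% (5.07 to 5.95, 588 cells). The Gli1- share was thus lowest at 7 dpi and highest at 21 dpi, and the Gli1+ share was close to 3 times as high at 21 dpi as in uninjured tendon. Once cells were thinned to 2000 UMIs, the shares were 6.58%, 4.03% and 8.79% in the Gli1- libraries, against 1.65%, 1.47% and 5.50% in the Gli1+ ones, so the 7 dpi share of Gli1+ cells lay below, not above, the uninjured one, and its difference of 0.38 percentage points was within the counting interval of 0.423. Members were chosen anew after thinning, so a cell that lost its excluding UMIs could enter. At Gli1- 21 dpi 972 thinned cells passed the rule, against 949 at full depth. In the uninjured Gli1+ library 3533 of 7516 kept cells passed as immune cells, and only 3218 held no Ptprc UMI. This lowers every other share. Among kept cells without Ptprc, the 21 dpi share exceeded the uninjured one by 1.3 percentage points in Gli1+ cells, against 3.7 over all kept cells. The 7 dpi share then lay below the uninjured one by more than its counting interval, with a difference of -2.02 (0.766 to either side), and with cells holding other cells' RNA left out it did so too (-1.03, 0.337 to either side).

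The rule left out 4339 of 7527 barcodes with 3 or more UMIs of the rule genes. Of the barcodes left out, 2376 were in the Gli1- uninjured library, and 1943 of its barcodes with these UMIs held Cdh5. Among cells with 2 or more Cdh5 UMIs, Rgs5 was seen in 67.7%, 45.2% and 25.8% of the Gli1- and 48.2%, 30.5% and 16.5% of the Gli1+ cells. Rgs5 in cells with an endothelial marker was thus most frequent in the uninjured libraries. Where 1 UMI of the excluded genes was allowed, the difference between Gli1- 21 dpi and uninjured was -0.782 percentage points in place of 1.23, so the direction of this difference rests on the exclusion.

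Smooth muscle cells were 66.0%, 65.9% and 76.4% of the Gli1- set and 60.0%, 59.4% and 72.8% of the Gli1+ set. The order of these shares was not kept at equal depth. With each cell thinned to 2000 UMIs, they were 62.6%, 56.2% and 56.6% in the Gli1- libraries, against 63.6%, 54.2% and 51.0% in the Gli1+ ones, and the 21 dpi value lay below the uninjured value in both sorts. At equal depth the difference from uninjured was -6.41 and -6.06 percentage points among Gli1- cells, with counting intervals of 6.15 and 4.87 to either side, and -9.41 and -12.7 among Gli1+ cells, with 12.3 and 9.83, so the Gli1+ 7 dpi difference was within counting error. Thinning left out every cell under 2000 UMIs and let in cells that lost their excluding UMIs. The median depth in the Gli1- uninjured library was 1942 UMIs for pericytes and 3049 for smooth muscle cells, against 6781.5 and 7075 at Gli1- 21 dpi. A larger part of the uninjured pericytes than of the smooth muscle cells was thus left out, and its part in these differences was not tested. As Myh11 is a gene of the rule, these shares are a description. The level of Myh11 in the cells that held it, a value the split uses, was 2316, 1007 and 783 CPM among Gli1- cells, against 2190, 700 and 715 CPM among Gli1+ cells. A member without Myh11 can therefore be a pericyte or a smooth muscle cell with little of it, and after injury these cannot be told apart.

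**Figure D1:**
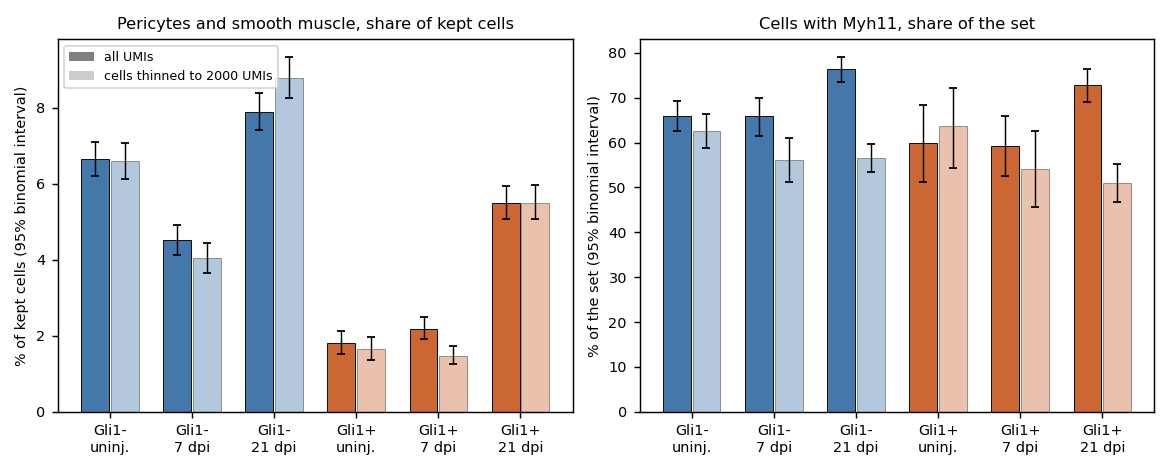
Share of kept cells that are pericytes or smooth muscle (left) and share of the set with a Myh11 UMI (right), in percent, by library, with 95% exact binomial intervals. Full bars use all UMIs and pale bars cells thinned to 2000 UMIs: on the left both give the highest share at 21 dpi in each sort, and on the right the higher 21 dpi share of the full bars (76.4% and 72.8%) is absent from the pale ones (56.6% and 51.0%).

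Within each library, the split by Myh11 separated cells that differed in a contractile group of genes. Of 3746 genes with enough UMIs, 27 were 2-fold or more higher in smooth muscle cells than in pericytes in all 6 libraries, and 1, Afdn, was so in pericytes. Beside Myh11 itself, they include Myom1 (median log2 ratio over the libraries 3.77), Ctnna3 (3.24), Actg2 (3.15), Sorbs2 (3.03), Mustn1 (2.99), Tagln (2.95), Lmod1 (2.82), Myocd (2.77) and Acta2 (2.19). Myocd encodes myocardin, the coactivator that switches on smooth muscle genes, and Lmod1 an actin nucleator of smooth muscle. As the cells were split by a gene of the same program, these values describe the classes and test nothing. The 16 listed pericyte genes do not bear out the names of the classes. Their sum in cells without Myh11 was 5772, 2981 and 3165 CPM in the Gli1- libraries, against 4543, 3047 and 3850 CPM with Myh11. In the Gli1+ libraries it was 1812, 1707 and 2874 CPM without Myh11, against 6412, 1953 and 3678 CPM with it. Cells called pericytes thus held more of these genes only in the Gli1- uninjured library. Beyond the listed genes, those furthest above both endothelial and mesenchymal cells in all libraries were Lin7a, Ano1, a calcium-activated chloride channel of vascular muscle, Rasl11a, Ctnna3, Il34, Dmd, Irag1, a target of cyclic GMP-dependent kinase, and Gucy1a2, a subunit of the nitric oxide receptor. Over all genes with 50 CPM or more in the set in all 6 libraries, 74 of 2497 (2.96%) were 2-fold or more above both other cell types in each library. Of the genes listed for each function this held for 15 of 23 contractile, 12 of 16 pericyte and 12 of 24 vasoactive genes. It held for none of the interstitial matrix, inflammatory, immediate early, cell cycle, hypoxia or osteochondral genes. The list counts include genes under 50 CPM, such as Pln and Kcnmb1, so they and the 2.96% rest on different filters.

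To compare time points, the UMIs of a gene were summed over the members of a library and divided by all UMIs of these members, in counts per 1000000 UMIs (CPM). A gene entered with a mean of 50 CPM or more over the libraries compared, and is called higher or lower where its CPM differed 2-fold or more, a log2 ratio of 1. At 7 dpi over uninjured in the Gli1- libraries, 347 of 3859 genes were higher (8.99%) and 518 lower (13.4%). At 21 dpi over uninjured, 236 of 3832 were higher (6.16%) and 384 lower (10%). In the Gli1+ libraries the counts at 7 dpi were 429 of 3806 higher (11.3%) and 609 lower (16%), and at 21 dpi 351 of 3813 higher (9.21%) and 436 lower (11.4%). Lower genes outnumbered higher ones in all 4 comparisons. That order depends on the scaling: with TMM factors, which raise the log2 ratios by 0.23 and 0.35 among Gli1- cells, against 0.31 and 0.35 among Gli1+ cells, 527 and 330 genes were higher and lower at Gli1- 7 dpi, 510 and 209 at Gli1- 21 dpi, 631 and 335 at Gli1+ 7 dpi and 657 and 209 at Gli1+ 21 dpi. Each value below is on the scale of total UMIs, whose median over all genes was -0.15, -0.07, -0.19 and -0.12 in the same order.

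Contractile genes did not move as a block. Of 22 measured in each Gli1- comparison, 1 was higher and 5 lower at 7 dpi and 1 higher and 5 lower at 21 dpi, with medians of -0.64 and -0.58. Of 21 and 19 in the Gli1+ libraries, 1 and 2 were higher and 3 and 1 lower, with medians of -0.48 and 0.17. Over all genes 8.99%, 6.16%, 11.3% and 9.21% were higher and 13.4%, 10%, 16% and 11.4% lower in these comparisons. Apart from the lower genes in Gli1- cells, the contractile counts are thus near the background or under it. The contractile genes with the lowest log2 ratios were Pln, Lmod1 and Synpo2 at Gli1- 7 dpi. Pln, phospholamban, the inhibitor of the calcium pump of the sarcoplasmic reticulum, stood at 203, 33.9 and 29.95 CPM in the Gli1- libraries (uninjured, 7 dpi, 21 dpi) and 74.0, 24.4 and 15.4 CPM in the Gli1+ libraries. The Gli1- level differed from uninjured by a log2 ratio of -2.59 (-2.89 to -2.29, 95% interval) after 7 days and of -2.76 (-2.99 to -2.54) after 21 days. Lmod1 was at 353, 112 and 138 CPM among Gli1- cells, against 213, 57.4 and 137 CPM among Gli1+ cells. Its level was lowest at 7 dpi in both sorts.

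Myocd followed the same order, with 89.6, 41.5 and 64.3 CPM among Gli1- cells, against 105, 25.8 and 52.5 CPM among Gli1+ cells. Smtn, smoothelin of contractile smooth muscle, was at 132, 76.9 and 36.1 CPM in Gli1- cells, and Tpm2, a tropomyosin, at 2295, 1476 and 953 CPM. Both were lowest at 21 dpi, with log2 ratios over uninjured of -1.87 and -1.27. In Gli1+ cells Tpm2 was at 763, 984 and 860 CPM, without the lower level. Tagln, transgelin, was at 3962, 3097 and 2257 CPM among Gli1- cells, against 1459, 1903 and 2055 CPM among Gli1+ cells, so it lay below the uninjured level in one sort and above it in the other, without a 2-fold difference in either. Of the other listed genes, Synpo2, an actin-bundling protein, and Ppp1r12b, of the myosin phosphatase, were lower at Gli1- 7 dpi (-1.29 and -1.19), Ppp1r12b was lower at Gli1+ 7 dpi (-1.10) and 21 dpi (-1.04), and Flna, filamin, was at 742, 467 and 371 CPM in Gli1- cells. Myl9, Mylk, Tpm1, Vcl, Csrp1, Cald1, Des, Cnn1, Myl6 and Ppp1r14a stayed within 2-fold of the uninjured level at both times in both sorts where measured. Kcnmb1, a subunit of the large potassium channel, was at 25.3 CPM or less in every library.

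Acta2 and Actg2, the actins of vascular and of enteric smooth muscle, differed from this group. Actg2 was at 55.1, 162 and 195 CPM among Gli1- cells, against 42.4, 146 and 185 CPM among Gli1+ cells, which is higher at both times in both sorts. The log2 ratios were 1.56 (1.29 to 1.83) and 1.83 (1.58 to 2.08) among Gli1- cells, against 1.78 (1.32 to 2.27) and 2.13 (1.71 to 2.58) among Gli1+ cells. Acta2 was at 4383, 4797 and 4722 CPM in Gli1- cells, close to equal at all times, and at 1965, 2640 and 4265 CPM in Gli1+ cells, where it was 2-fold higher at 21 dpi (1.12, 1.05 to 1.18). In the stricter set this ratio was 0.99, and the Gli1+ 21 dpi median of the list was -0.01 in place of 0.17, with 1 gene higher and 2 lower.

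The steady Acta2 level of the Gli1- set hid unequal levels of its classes. Cells without Myh11 held 417, 1549 and 1746 CPM of Acta2 in the Gli1- libraries, against 110, 753 and 1814 CPM in the Gli1+ ones. Cells with Myh11 held 5636, 6240 and 5607 CPM of it in the Gli1- libraries, against 3823, 3886 and 5245 CPM in the Gli1+ ones. The share of cells without Myh11 that held an Acta2 UMI was 38.7%, 64.3% and 74.1% in the Gli1- libraries, against 27.8%, 58.4% and 74.4% in the Gli1+ ones, at median depths of 1942, 4060.5 and 6781.5 and of 6127, 2898 and 7036 UMIs. Acta2 was thus higher after injury in the class without Myh11, and within 2-fold in the class with Myh11. The same split held over the list. The median log2 ratio of the contractile genes was 0.38 and 0.34 in the Gli1- class without Myh11 and 0.60 and 1.29 in the Gli1+ one, against -0.57, -0.63, -0.84 and -0.39 in the class with Myh11. Without Myh11, Myocd lay above its uninjured level at 7 dpi (0.70 and 2.32), and Tpm2 and Flna at Gli1- 21 dpi (0.32 each). The Gli1+ value of Myocd rests on very few uninjured UMIs. As given above, a lower Myh11 level moves smooth muscle cells into the class without it, so cells that gained Acta2 and cells that lost Myh11 cannot be told apart. The class without Myh11 also held RNA of other cells. In Gli1- cells of this class the 8 endothelial genes summed to 2791, 354 and 737 CPM. In Gli1+ cells of this class the epidermal genes summed to 10592, 21213 and 5395 CPM. The part of other cells in the low uninjured Acta2 level of this class was not tested. Over all members thinned to 2000 UMIs, Acta2 was seen in 59.2%, 81.0% and 80.4% of Gli1- and 52.0%, 72.4% and 77.1% of Gli1+ members, and in 14.9%, 24.9%, 11.7%, 0.84%, 36.3% and 9.96% of mesenchymal cells of the same libraries and depth.

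**Figure D2:**
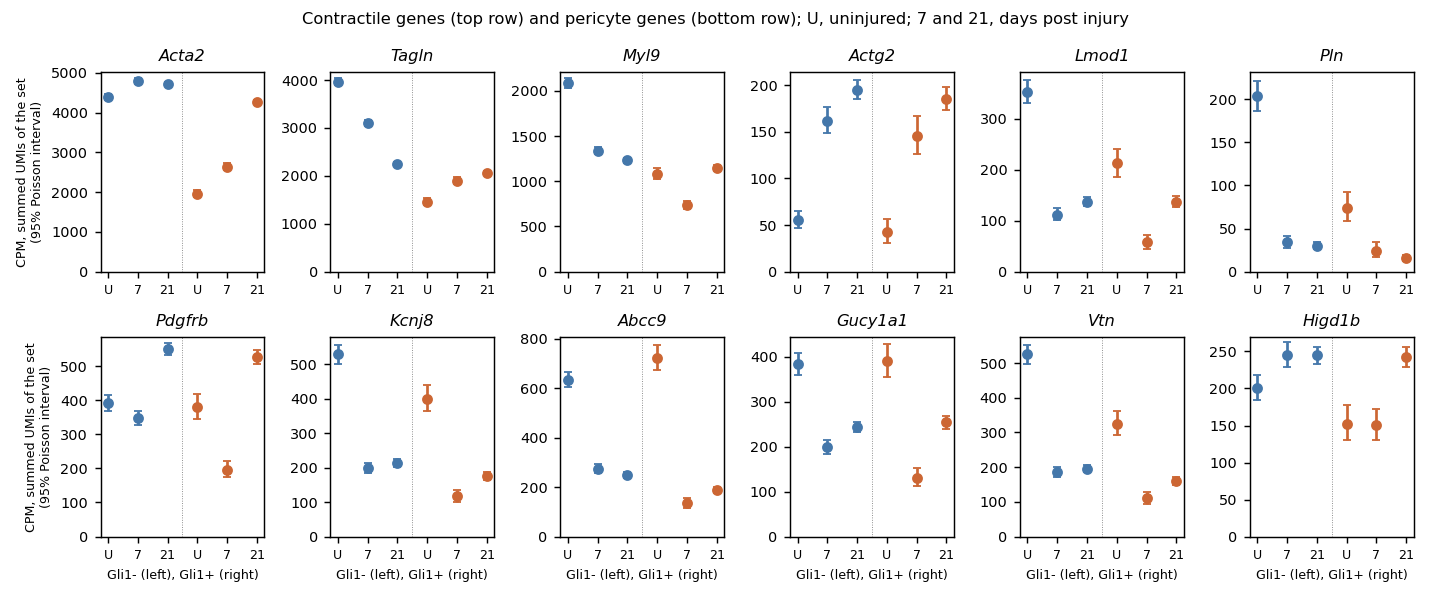
Levels of 6 contractile genes (top) and 6 pericyte genes (bottom) in the set, in CPM from summed UMIs with 95% exact Poisson intervals, by library. Pln, Lmod1, Kcnj8, Abcc9 and Vtn lie lower at 7 dpi than in uninjured tendon in both sorts, Actg2 lies higher, and Acta2 keeps its level in the Gli1- set (4383, 4797 and 4722 CPM).

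A control element known from promoters of contractile genes was found in few of them here, and the 40 bases around it are shown for the listed genes that hold it. The CArG box, the site of serum response factor, through which myocardin acts, was searched in the 250 bases before the start of each gene (RefSeq, GRCm38.p6). As a pattern it is its own reverse complement, so a search of one strand covers both, though a single box need not read the same on both. It was found in 3 of the 19 contractile genes with an entry (15.79%), 1 of 18 vasoactive genes, 0 of 10 pericyte genes and 482 of 32851 entries in all (1.467%). Capitals mark the box.
Myl9, chr2:156775288-156775327, + strand: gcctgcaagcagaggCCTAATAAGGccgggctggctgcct
Myl6, chr10:128493035-128493074, - strand: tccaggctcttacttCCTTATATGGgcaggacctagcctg
Vcl, chr14:20929156-20929195, + strand: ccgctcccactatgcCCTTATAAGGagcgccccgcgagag
Trpc6, chr9:8544005-8544044, + strand: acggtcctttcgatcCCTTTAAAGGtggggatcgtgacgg
The boxes start 161, 50, 227 and 122 bases before the gene start. Among these, Trpc6, a cation channel of smooth muscle, was higher in the injured Gli1- libraries, while Myl9, Myl6 and Vcl were within 2-fold. A match describes letters, not use of the site, and a gene without one here can hold it elsewhere.

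Among the pericyte genes, both subunits of a potassium channel and Vtn were lower at both times in both sorts, and Steap4 at 7 dpi in both. The other members were within 2-fold in most comparisons. Of 15 genes measured in the Gli1- libraries, none was higher and 4 were lower at 7 dpi and 4 at 21 dpi, with medians of -0.53 and -0.20. Of 14 and 15 in the Gli1+ libraries, none was higher and 7 and 3 were lower, with medians of -1.15 and -0.10. Over all genes 8.99%, 6.16%, 11.3% and 9.21% were higher and 13.4%, 10%, 16% and 11.4% lower in these comparisons. By class, the median was -0.76 and -0.83 in Gli1- pericytes and -0.47 and -0.26 in Gli1- smooth muscle cells. In Gli1+ pericytes, whose uninjured cells are the least secure, it was positive, at 0.21 and 0.85, against -1.80 and -0.64 in Gli1+ smooth muscle cells, so the direction of this list in the Gli1+ libraries is that of the class with Myh11. With TMM factors the medians at 21 dpi turned positive in both sorts, to 0.15 and 0.25. Kcnj8 and Abcc9 encode the pore and the sulfonylurea receptor of the potassium channel that opens when cellular ATP is low and relaxes mural cells. Kcnj8 was at 530, 198 and 214 CPM among Gli1- cells, against 401, 117 and 176 CPM among Gli1+ cells. Abcc9 was at 633, 274 and 249 CPM among Gli1- cells, against 724, 134 and 188 CPM among Gli1+ cells. Both subunits were lower at both times in both sorts, with log2 ratios of -1.42 (-1.55 to -1.28) and -1.31 for Kcnj8 and -1.21 and -1.35 for Abcc9 in Gli1- cells. With TMM factors several of these calls were lost. Kcnj8 at 21 dpi in both sorts, Abcc9 at both Gli1- time points and Vtn at Gli1+ 21 dpi then lay below uninjured but within 2-fold. In members thinned to 2000 UMIs, Kcnj8 was seen in 39.1%, 27.2% and 26.0% of Gli1- and 44.9%, 20% and 27.4% of Gli1+ cells.

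Vtn, the adhesive protein vitronectin, a marker of pericytes, was lower as well, with 525, 186 and 195 CPM among Gli1- cells, against 326, 111 and 160 CPM among Gli1+ cells. Steap4, a metalloreductase, was lowest at 7 dpi, with 313, 110 and 205 CPM and 250, 51.7 and 169 CPM. Gucy1a1 and Gucy1b1 form the nitric oxide receptor that makes cyclic GMP. Gucy1a1 was at 384, 200 and 244 CPM in Gli1- cells and Gucy1b1 at 291, 150 and 160 CPM. They stayed within 2-fold there and were lower only at 7 dpi in the Gli1+ libraries (-1.57 and -1.44). In the Gli1+ pericytes alone, Gucy1b1 did not show this (0.03). Cspg4, the proteoglycan NG2, was at 130, 81.8 and 59.6 CPM in Gli1- cells, and lower at 21 dpi (-1.12).

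Pdgfrb, the receptor through which the endothelium recruits pericytes, stood at 391, 348 and 549 CPM among Gli1- cells, against 380, 196 and 527 CPM among Gli1+ cells, always within 2-fold of uninjured, though by little at Gli1+ 7 dpi (-0.95). The same held for Higd1b (200, 246 and 245 CPM in Gli1- cells), Cox4i2 (182, 151 and 172 CPM) and Ndufa4l2 (634, 547 and 551 CPM), pericyte-enriched genes linked to mitochondria and low oxygen. Mcam, Aoc3 and Foxs1 also stayed within 2-fold where measured, Rgs4 was lower at Gli1+ 7 dpi alone (-1.35), and Tbx18 was at 37.9 CPM or less. Of the rule genes, whose levels chose the cells, Rgs5 was at 3562, 3101 and 4010 CPM among Gli1- cells, against 2508, 1980 and 3783 CPM among Gli1+ cells, and Notch3 at 566, 449 and 488 CPM and 604, 287 and 429 CPM.

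In the Notch pathway a ligand of one cell cuts free the receptor's inner part in its neighbour. Of 7, 7, 6 and 7 genes measured (Gli1- 7 and 21 dpi, Gli1+ 7 and 21 dpi), none was higher and 2, 2, 3 and 3 were lower, beside 13.4%, 10%, 16% and 11.4% of all genes lower, with medians of -0.70, -0.69, -1.07 and -0.62. In the stricter set the medians were -0.71, -0.81, -0.40 and -0.40. Other cells of the same libraries had medians below 0 as well. The same list gave -0.79, -0.57, -1.07 and -0.60 in endothelial and -0.97, -0.31, -0.72 and -0.72 in mesenchymal cells. Hes1, a repressor that active Notch switches on, was at 360, 89.4 and 264 CPM among Gli1- cells, against 426, 78.2 and 277 CPM among Gli1+ cells. It was low at 7 dpi and nearer to the uninjured level at 21 dpi in both sorts, with log2 ratios of -2.01 (-2.20 to -1.82) and -0.45 among Gli1- cells, against -2.44 and -0.62 among Gli1+ cells. The receptor Notch1 was low at both times, with 95.4, 35.1 and 37.8 CPM and 165, 50.3 and 41.8 CPM. Heyl, a target of Notch in mural cells and, with Hey2, 1 of 2 listed genes 2-fold above both other cell types in all libraries, was at 79.6, 61.0 and 49.8 CPM among Gli1- cells, against 84.8, 23.7 and 40.6 CPM among Gli1+ cells.

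The vasoactive list holds receptors and channels that set vessel tone, and apart from 7 lower genes at Gli1+ 7 dpi and 3 higher ones at 21 dpi in each sort its counts are near the background. Of 12 vasoactive genes measured at Gli1- 7 dpi, 1 was higher and 2 were lower, and of 14 at 21 dpi, 3 were higher and 2 lower. Of 12 and 13 in the Gli1+ libraries, none and 3 were higher, and 7 and 2 lower, beside 6.16% to 11.3% of all genes higher and 10% to 16% lower. The medians of the list were -0.83, -0.17, -1.38 and -0.37 (0.05 and 0.76 for the last 2 in pericytes alone), and the Gli1- 21 dpi median turned positive with TMM factors (0.18). Over uninjured tendon, Trpc6 had the highest 21 dpi ratio of the list in Gli1- cells (2.46) and Avpr1a in Gli1+ cells (1.75). Ednrb, the B type endothelin receptor, followed, and had the highest ratio of 21 dpi over 7 dpi in both sorts. It was at 171 (156 to 187), 146 (133 to 159) and 671 CPM (653 to 690) among Gli1- cells, against 209 (183 to 238), 73.2 (59.7 to 88.9) and 691 CPM (668 to 715) among Gli1+ cells. At 21 dpi its log2 ratio over uninjured was 1.97 (1.84 to 2.11) and 1.72 (1.53 to 1.92), and over 7 dpi 2.21 (2.07 to 2.34) and 3.24 (2.95 to 3.54).

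The Ednrb level at 21 dpi was alike in both classes, with 651 and 741 CPM in Gli1- cells with and without Myh11 and 695 and 682 CPM in Gli1+ cells. Endothelial cells of the same libraries, which clear endothelin through this receptor, held 18.8 and 19.4 CPM at 21 dpi, against 70.7 and 68.0 CPM in uninjured tendon. Mesenchymal cells held 3.74 CPM or less in every library, so the higher level at 21 dpi was seen in the mural cells and in neither neighbour. Thinned to 2000 UMIs, 25.9%, 20.8% and 45.5% of Gli1- and 22.8%, 12.4% and 45.3% of Gli1+ members held Ednrb, against 3.29% and 2.94% of endothelial cells at 21 dpi and at most 0.857% of mesenchymal cells. Ednra, the A type receptor, was at 150, 192 and 310 CPM among Gli1- cells, against 171, 103 and 284 CPM among Gli1+ cells, highest at 21 dpi and at 2-fold there in Gli1- cells (1.04, 0.89 to 1.20), though not in the stricter set (0.90).

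Trpc6 was at 29.4, 109 and 162 CPM among Gli1- cells, against 63.2, 107 and 148 CPM among Gli1+ cells. The log2 ratio was 1.90 (1.54 to 2.26) and 2.46 (2.13 to 2.81) among Gli1- cells, against 0.76 and 1.23 among Gli1+ cells. In the stricter set the Gli1+ ratios were 1.33 and 0.97, so there the higher level was at 7 dpi. At 2000 UMIs per cell 6.19%, 15.7% and 19.9% of Gli1- members held it, against 0.816% or less of the endothelial cells and 0.408% or less of the mesenchymal cells there. In Gli1- pericytes the thinned share was 0.758%, 17.1% and 19.6%. The uninjured ones held more endothelial RNA, as given above, and its part in their low share was not tested. Avpr1a, a vasopressin receptor, was at 50.6, 39.7 and 72.7 CPM among Gli1- cells, against 23.5, 23.7 and 79.1 CPM among Gli1+ cells.

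Other members of the list act in calcium entry and release or in relaxation. Agtr1a, the angiotensin receptor, was at 85.5, 40.0 and 53.4 CPM among Gli1- cells, against 84.8, 15.8 and 34.6 CPM among Gli1+ cells. Ryr2, the ryanodine receptor, was at 81.1, 21.1 and 27.2 CPM in Gli1- cells. In Gli1+ cells Ryr2 was at 62.2, 7.18 and 23.4 CPM. Both were lowest at 7 dpi in both sorts. Prkg1, cyclic GMP-dependent kinase, was at 1692, 897 and 1399 CPM among Gli1- cells, against 1914, 687 and 1096 CPM among Gli1+ cells. Cacna1c, the L-type calcium channel, was at 604, 363 and 581 CPM among Gli1- cells, against 837, 296 and 504 CPM among Gli1+ cells. Itpr1, the IP3 receptor that frees stored calcium, was at 264, 140 and 145 CPM among Gli1- cells, against 254, 101 and 115 CPM among Gli1+ cells. All 3 had their lowest level at 7 dpi, and in Gli1- cells all were within 2-fold of uninjured. The ratios of Prkg1 (-1.48) and Cacna1c (-1.50) at Gli1+ 7 dpi were not present in Gli1+ pericytes alone (0.08 and 0.31). Adra1a, an adrenergic receptor of contraction, was at 78.5, 18.6 and 11.7 CPM among Gli1- cells, against 35.2, 15.8 and 11.2 CPM among Gli1+ cells, under the mean needed to enter.

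**Figure D3:**
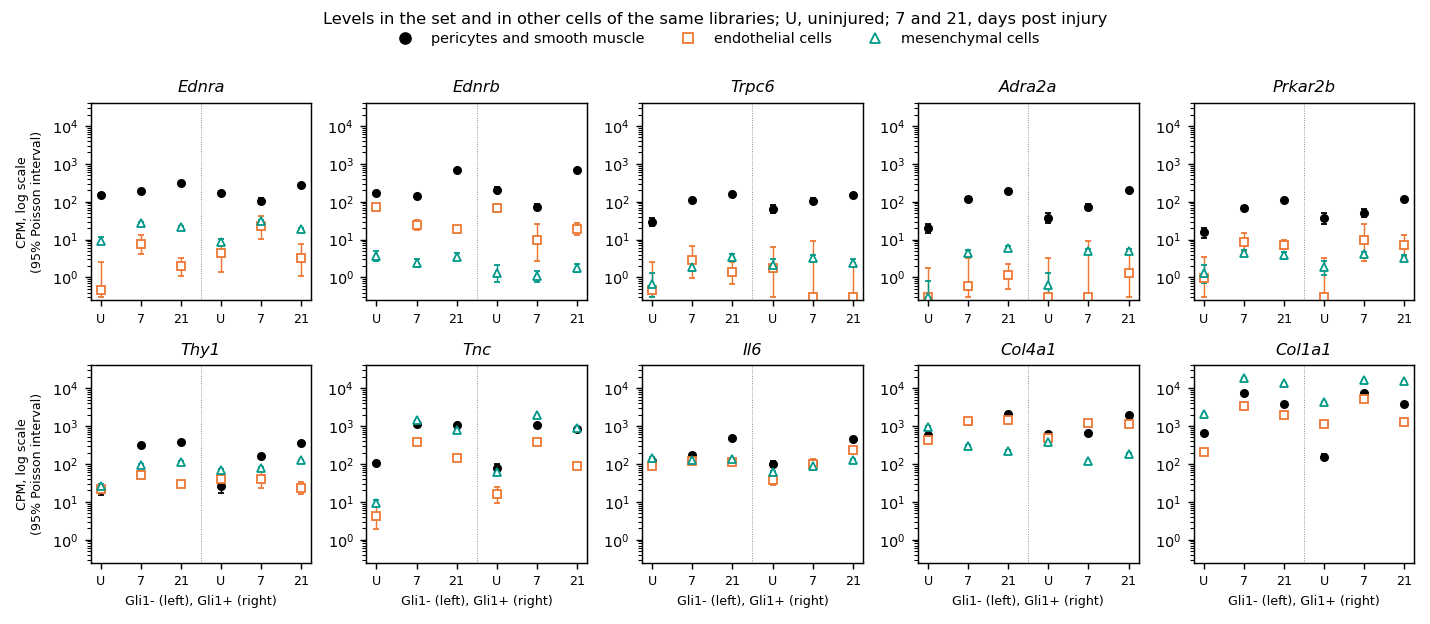
Levels of 10 genes in CPM on a log axis, with 95% exact Poisson intervals, in the set (filled circles), in endothelial cells (squares) and in mesenchymal cells (triangles) of the same libraries. A value under 0.3 CPM is drawn at 0.3. Ednrb, Trpc6, Adra2a and Prkar2b lie above both other cell types in each library, with Ednrb near 700 CPM at 21 dpi (671 and 691), while Tnc is higher after injury in all 3 cell types and Col1a1 in all but the Gli1+ endothelial cells at 21 dpi (1292 against 1145 CPM).

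Some genes were 2-fold or more above endothelial and mesenchymal cells in the library where the set was higher, and were singled out because RNA of those neighbours can add least to them. As the choice uses the direction of the ratio, their numbers are not compared. Thy1, a surface glycoprotein, had among the highest ratios in all 4 comparisons. It stood at 20.6, 308 and 377 CPM among Gli1- cells, against 26.2, 162 and 367 CPM among Gli1+ cells. Endothelial cells held 22 to 53 CPM of it, and mesenchymal cells, in which it was higher after injury in the Gli1- libraries, 26.7, 95.7 and 114 CPM (Gli1-) and 67.8, 79.0 and 126 CPM (Gli1+). Thinned to 2000 UMIs, 3.48%, 39.6% and 41.3% of Gli1- and 3.94%, 30% and 42.3% of Gli1+ members held Thy1, against 2.99% to 6.45% of endothelial and 3.92% to 20.5% of mesenchymal cells, so it was rare in uninjured mural cells and frequent after injury. In the stricter set the log2 ratios were 3.96, 4.12, 3.24 and 3.703.

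Adra2a, an adrenergic receptor coupled to inhibitory G proteins, was at 20.2, 117 and 190 CPM among Gli1- cells, against 37.9, 72.5 and 206 CPM among Gli1+ cells, and at 5.83 CPM or less in endothelial and mesenchymal cells. Rgs16, like Rgs5 a brake on G protein signals, was at 115, 367 and 684 CPM among Gli1- cells, against 269, 265 and 981 CPM among Gli1+ cells. Gpr176, an orphan receptor, was at 13.9, 89.1 and 119 CPM among Gli1- cells, against 37.9, 63.9 and 110 CPM among Gli1+ cells. These 3 genes of receptor signalling were highest at 21 dpi in both sorts. Nrep, Nostrin and Serpine2 were further genes high at Gli1- 7 dpi (2.32, 1.88 and 1.83 in the stricter set), and Nrep (2.88), Phlda1 (2.09), Tmem176a, Gamt, Actg2 and Serpine2 at Gli1+ 7 dpi. Plac8 led this group in the Gli1+ comparisons, with 1.80 CPM, or 2 UMIs, without injury and 261 and 296 CPM after it (log2 ratios over the whole set 7.17, 5.31 to 10.23, and 7.36, 5.50 to 10.41).

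At 21 dpi in Gli1- cells, Frmd5, a protein of cell adhesion, was at 219 CPM, against 4.04 in uninjured tendon and 17.1 at 7 dpi, and in Gli1+ cells at 99.3 CPM against 4.51 and 12.9. H2-M9, a class Ib histocompatibility gene, was at 12.8, 12.5 and 92.9 CPM among Gli1- cells, against 26.2, 7.90 and 85.3 CPM among Gli1+ cells, and C2, a complement component, at 22.02, 36.01 and 119 CPM and 16.2, 30.9 and 152 CPM. All 3 thus had their highest level at 21 dpi in both sorts, and Frmd5 lay above its uninjured level at 7 dpi as well. Col5a3, Hilpda and Prkar2b were also among the highest at Gli1- 21 dpi (2.47, 3.02 and 2.63 in the stricter set), and C2 (2.71), Il6 (2.17), Adra2a (2.04) and Ifitm1 (2.02) at Gli1+ 21 dpi. Of 21 dpi over 7 dpi, Frmd5 (3.86), Ednrb (2.13) and Tmtc1 (2.35) in Gli1- and Ednrb (2.60), Il6 (1.78) and Rgs4 (1.72) in Gli1+ cells were among the highest.

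A few of the genes with the lowest ratios were the same in both sorts. Opcml, a cell adhesion molecule, was at 337, 65.9 and 24.9 CPM among Gli1- cells, against 254, 58.1 and 11.4 CPM among Gli1+ cells. Slc35f1 was at 244, 25.9 and 17.2 CPM and 185, 12.2 and 5.21 CPM. Plxdc1 was at 88.8, 16.2 and 8.65 CPM and 80.3, 15.1 and 7.61 CPM. All 3 were lower at 7 dpi and lower still at 21 dpi. Pln, Casq2, which stores calcium in the sarcoplasmic reticulum (-3.04), Sox6 (-2.57), Art3 and Itga8 were among the lowest at Gli1- 21 dpi in the stricter set, Pacsin3, Scn3a, Fgf13, Ntrk3 and Cpm at Gli1- 7 dpi, and Hs6st3 and Mamdc2 at Gli1+ 7 dpi.

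Overlap between the sorts was counted over genes that entered in both. Of 3406 genes at 7 dpi, 391 were higher in Gli1+ and 309 in Gli1- cells, and 228 in both (58.3% and 73.8% of these). Lower were 510 and 389, and 250 in both (49.0% and 64.3%). Of 3487 genes at 21 dpi, 338 and 214 were higher, and 152 in both (45.0% and 71.0%). Lower were 303 and 265, and 151 in both (49.8% and 57.0%). The sorts use different libraries, but sex of the members was alike in both at 7 dpi and at 21 dpi. As given above, no Gli1- member held Xist in uninjured tendon or at 7 dpi. The fibroblast and tendon genes were also higher after injury in both. The part of sex and of fibroblast RNA in the overlap was not tested.

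Over all genes, those with the highest ratios were mostly known from other cell types, and several rested on few cells. At Gli1- 7 dpi they were led by the keratins Krt16 and Krt14, of whose UMIs 5 of 492 members held 98.8% and 96.6%. At Gli1- 21 dpi Col2a1 (log2 ratio 10.57, 8.09 to 15.88, with 1 UMI in uninjured tendon) and Ibsp (8.38, 6.83 to 10.66, with 3 UMIs), genes of cartilage and bone, led with Saa3 (9.98, 8.44 to 12.26, with 3 UMIs), and 5 of 949 members held 93.5% of the Col2a1 and 96.4% of the Ibsp UMIs. Hp, haptoglobin, an acute-phase gene like Saa3, was broader at 21 dpi, with 12.2% and 15.5% of its UMIs in 5 Gli1- and 5 Gli1+ members, while 5 members held 47.2% and 67.5% of the Saa3 UMIs. Saa3 was at 1.10, 59.2 and 1115 CPM among Gli1- cells, against 0.902, 66.0 and 481 CPM among Gli1+ cells, and at 6016 and 5815 CPM in the mesenchymal cells of the 21 dpi libraries. Hp was at 13.6, 125 and 1945 CPM among Gli1- cells, against 0.902, 73.9 and 1174 CPM among Gli1+ cells, and at 2021 and 1172 CPM in mesenchymal cells at 21 dpi. As the mesenchymal cells held as much or more, the part of RNA from outside the cell was not tested. In Gli1+ cells Timp1 (8.84, 6.35 to 14.14, with 1 uninjured UMI), Tnn, Cthrc1, Col11a1 and Lum (7.06, 5.50 to 9.34, with 3 uninjured UMIs) were among the highest at 7 dpi. The lowest ratios were of the hemoglobin genes Hba-a1 (-5.59) and Hbb-bs and of Inmt (-4.82) at Gli1- 7 dpi, of Cntn5 (-11.30, -13.58 to -9.75, with 3 UMIs at 21 dpi) at Gli1- 21 dpi, and of Krt35, Calcr and Hs6st3 at Gli1+ 7 dpi. Some of these rested on few cells too: in the uninjured Gli1+ set all 245 Krt35 UMIs sat in 4 of 135 members, and 5 members held 80.2% of the Calcr UMIs.

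Matrix genes were higher after injury. Of 26 interstitial matrix genes at each Gli1- time point, 21 were higher and none lower, with medians of 2.32 and 1.96. Of 26 and 25 in the Gli1+ libraries, 22 and 23 were higher and none lower, with medians of 3.08 and 2.71. Over all genes 8.99%, 6.16%, 11.3% and 9.21% were higher in these comparisons. Col1a1, the main fibrillar collagen, was at 661, 7570 and 3844 CPM among Gli1- members, against 154, 7241 and 3796 CPM among Gli1+ members. The mesenchymal cells of the same libraries held more, 2044, 19010 and 13486 CPM and 4362, 16356 and 15643 CPM, and endothelial cells 207, 3368 and 1958 CPM and 1145, 5117 and 1292 CPM. Endothelial cells, which make little fibrillar collagen, gave a median log2 ratio of 2.49 and 1.90 for this list in the Gli1- libraries, against 1.27 and -0.40 in the Gli1+ ones. In the Gli1- libraries the mural and the endothelial medians were thus near each other, and in the Gli1+ libraries the mural median was higher. The part that free RNA of fibroblasts has in these values was not tested.

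Tnc, tenascin C, was nearer to its mesenchymal level, with 103, 1113 and 1095 CPM in Gli1- members against 9.35, 1462 and 791 CPM in mesenchymal cells, and 78.5, 1059 and 853 CPM in Gli1+ members against 62.4, 1923 and 890 CPM. In uninjured Gli1- tendon the members thus held more Tnc than the mesenchymal cells. That holds for cells with Myh11 (135 CPM), while those without it held 3.06 CPM, from 2 UMIs. Postn, periostin, was at 115, 1713 and 735 CPM in Gli1- members, and Timp1, an inhibitor of metalloproteinases, at 11.01, 525 and 409 CPM. Thbs1 and Ccn1 were within 2-fold at both Gli1- time points, Ccn2 in all 4 comparisons, and Dcn, decorin, was at -0.54 and 0.06 among Gli1- cells, against 2.68 and 3.35 among Gli1+ cells.

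The basement membrane, which mural cells and endothelium lay down together, gave 6 higher and no lower genes of 15 at both Gli1- time points, 4 higher and 1 lower of 14 at Gli1+ 7 dpi and 6 higher and none lower of 15 at Gli1+ 21 dpi. The medians were 0.21, 0.13, 0.11 and 0.59. Over all genes 8.99%, 6.16%, 11.3% and 9.21% were higher and 13.4%, 10%, 16% and 11.4% lower in these comparisons. Col18a1, whose end piece is endostatin, was at 86.6, 491 and 697 CPM among Gli1- cells, against 65.0, 281 and 724 CPM among Gli1+ cells, and Col15a1 at 31.9, 149 and 128 CPM and 22.6, 81.8 and 96.3 CPM. Col4a1 and Col4a2, the chains of the collagen IV network, were at 566, 1364 and 2122 CPM and 378, 848 and 1150 CPM in Gli1- cells. In Gli1+ cells Col4a1 was at 632, 653 and 1941 CPM, and with cells holding other cells' RNA left out at 720, 1173 and 2324 CPM, so its level at Gli1+ 7 dpi depends on those cells. Lamb1 and Sparc were higher in all 4 comparisons. The other laminins and nidogens and Hspg2, perlecan, were within 2-fold. Itga7, a laminin receptor of muscle and the one listed gene 2-fold above both other cell types in all libraries, was at 112, 90.9 and 126 CPM among Gli1- cells, against 128, 38.0 and 121 CPM among Gli1+ cells.

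Of 9, 10, 7 and 8 genes measured for signals between endothelium and mural cells, 0, 1, 2 and 0 were higher and 1, 1, 0 and 0 lower, with medians of -0.23, 0.41, -0.53 and 0.58. Over all genes 8.99%, 6.16%, 11.3% and 9.21% were higher and 13.4%, 10%, 16% and 11.4% lower. With TMM factors the first median was 0.01, and in the stricter set the medians were -0.28, 0.25, 0.12 and 0.26, so the direction at Gli1+ 7 dpi was not kept. Eng, endoglin, a co-receptor of TGF-beta family ligands, was the lower gene in Gli1- cells (-1.52 and -1.07). Neither call was kept in the stricter set, as given below. The endothelial genes were also lower after injury in these members, with 1293, 323 and 685 CPM, and the part of endothelial RNA in the Eng ratios was not tested. Tgfb2 was at 119, 225 and 166 CPM among Gli1- cells, against 84.8, 256 and 162 CPM among Gli1+ cells, highest at 7 dpi in both, and Pdgfa at 222, 215 and 363 CPM and 175, 180 and 336 CPM, highest at 21 dpi in both.

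Inflammatory genes were compared beside 8.99%, 6.16%, 11.3% and 9.21% of all genes higher and 13.4%, 10%, 16% and 11.4% lower after injury. Of 16 and 15 genes measured in the Gli1- libraries, 6 and 10 were higher and 1 and 3 lower, with medians of 0.78 and 1.40. Of 14 in each Gli1+ comparison, 5 and 9 were higher and 3 and 1 lower, with medians of 0.21 and 1.62. Endothelial cells of the same libraries gave medians of 1.10 and 1.60 (Gli1-) and 1.76 and 2.60 (Gli1+) for this list, and mesenchymal cells of 0.42 and 0.17 and of 0.79 and 0.61, so the endothelial median lay above that of the mural cells in all 4. Of 21 dpi over 7 dpi, 4 of 17 genes were higher and 4 lower in Gli1- cells and 5 of 16 higher and 2 lower in Gli1+ cells, with medians of 0.23 and 0.34. Of all genes, 3.08% were higher and 2.78% lower in that Gli1- comparison, and 5.28% and 4.89% in the Gli1+ one. Il6, the cytokine interleukin-6, was at 121, 174 and 488 CPM among Gli1- cells, against 99.2, 106 and 447 CPM among Gli1+ cells, with log2 ratios at 21 dpi of 2.02 and 2.17. Thinned to 2000 UMIs, 43.8% and 41.6% of members held Il6 at 21 dpi, against 10.4% and 8.66% in uninjured tendon. Il1r1, the receptor of interleukin-1, was at 167, 263 and 629 CPM and 129, 163 and 579 CPM. In endothelial cells Il6 was at 86.8, 121 and 116 CPM (Gli1-) and 38.3, 96.8 and 239 CPM (Gli1+), and Il1r1 at 53.1, 212 and 442 CPM and 40.1, 81.9 and 500.45 CPM, so there Il1r1 was higher at 21 dpi in both sorts and Il6 in the Gli1+ one. In mural cells both genes were within 2-fold at 7 dpi and above it at 21 dpi in both sorts.

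The chemokines Cxcl1 and Ccl2 were higher at both times in both sorts. Cxcl1 was at 449, 1249 and 1562 CPM among Gli1- cells, against 223, 856 and 1486 CPM among Gli1+ cells, and Ccl2 at 133, 522 and 302 CPM and 45.1, 454 and 313 CPM. Cxcl2 and Cxcl5 had the highest ratios of the list at Gli1- 7 dpi (4.61 and 6.40). Cxcl12, which holds leukocytes and progenitors in their niche, went the other way, with 752, 288 and 278 CPM among Gli1- cells, against 409, 201 and 212 CPM among Gli1+ cells. In Gli1+ pericytes alone its 7 dpi ratio was 0.04 in place of -1.02. Cxcl10 was lower at Gli1- 21 dpi (-1.23) and at both Gli1+ time points (-1.11 and -1.61), though not in Gli1+ pericytes at 7 dpi (0.32).

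**Figure D4:**
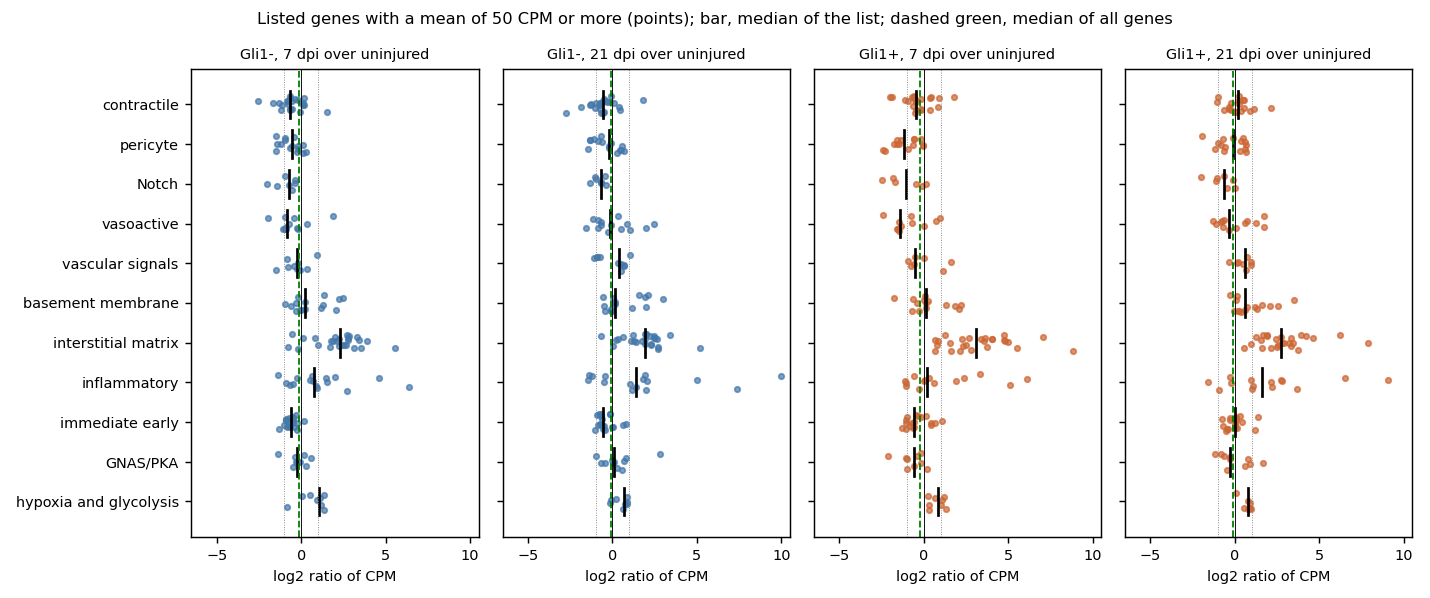
Log2 ratio of CPM in the set, injured over uninjured, for the listed genes with a mean of 50 CPM or more (points) and the list median (bar), in the 4 comparisons. The dashed green line is the median of all genes and dotted lines mark 2-fold. The interstitial matrix median lies at 1.96 to 3.08, Notch genes lie at or left of 0 but for 1, and the contractile list spreads on both sides of 0.

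The series asked about GNAS, the stimulatory G protein alpha subunit, and protein kinase A, which cyclic AMP activates. Of 9, 11, 9 and 10 such genes measured, 0, 1, 0 and 1 were higher and 1, 0, 2 and 1 lower, with medians of -0.25, 0.09, -0.54 and -0.30. Beside 6.16% to 11.3% of all genes higher and 10% to 16% lower, these counts are near the background. With TMM factors the last was 0.05. Gnas was at 913, 1020 and 973 CPM among Gli1- cells, against 1155, 792 and 948 CPM among Gli1+ cells, within 2-fold throughout. Prkar2b, a regulatory subunit of protein kinase A, was the gene higher at 21 dpi, with 15.4, 68.1 and 110 CPM among Gli1- cells, against 37.0, 49.5 and 117 CPM among Gli1+ cells, and log2 ratios of 2.84 and 1.66. With Pde3a, a phosphodiesterase of vascular muscle, it was 1 of 2 genes of the list 2-fold above both other cell types in all libraries. In members thinned to 2000 UMIs it was seen in 1.74%, 14.5% and 17.4% of Gli1- and 8.66%, 13.5% and 22.02% of Gli1+ cells, against 2.13% or less of endothelial and 0.833% or less of mesenchymal cells. Adcy6, an adenylyl cyclase, was at 90.7, 35.7 and 45.4 CPM among Gli1- cells, against 82.1, 19.4 and 46.8 CPM among Gli1+ cells.

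Hypoxia and glycolysis genes were higher in 4 of 8 at 7 dpi in each sort and in none of 8 and 7 at 21 dpi, with medians of 1.04 and 0.69 among Gli1- cells, against 0.84 and 0.78 among Gli1+ cells. Over all genes 8.99% and 11.3% were higher at 7 dpi and 6.16% and 9.21% at 21 dpi (Gli1- and Gli1+). In the stricter set 2 and 4 of the listed genes were higher at 7 dpi and 0 and 1 at 21 dpi. Endothelial cells gave medians of 0.85, 0.92, 1.09 and 0.93 and mesenchymal cells of 1.75, 1.26, 1.60 and 1.28 for the list, so other cells of these libraries moved the same way. Gapdh was at 451, 1158 and 809 CPM in Gli1- cells, Pgk1 had log2 ratios of 1.33 and 1.31 at 7 dpi, and Pkm of 1.19 and 1.23. Immediate early genes, which respond to handling of cells, gave medians of -0.62 and -0.58 among Gli1- cells, against -0.56 and 0.02 among Gli1+ cells, with 0, 0, 1 and 2 of 18 higher and 2, 1, 5 and 0 lower, beside 13.4%, 10%, 16% and 11.4% of all genes lower. The list had medians of -0.57, -0.79, -0.65 and -0.72 in endothelial and -1.17, -1.32, -0.93 and -0.64 in mesenchymal cells. Nr4a1 was lower at 7 dpi in both sorts (-1.01 and -1.26). Cell cycle genes mostly did not reach 50 CPM. Mki67 was at 1.47, 64.7 and 32.2 CPM in Gli1- members, and in the Gli1+ uninjured library at 115 CPM from 4 cells. Of 5, 8, 5 and 7 osteochondral genes measured, 1, 4, 0 and 2 were higher, beside 8.99%, 6.16%, 11.3% and 9.21% of all genes. Lower were 1, 0, 1 and 0 of them, beside 13.4%, 10%, 16% and 11.4% of all genes. The medians were -0.43, 1.13, -0.52 and -0.31 (the last 0.04 with TMM factors), and the higher ones include Col2a1 and Ibsp, whose UMIs sat in few cells as given above, and Spp1, osteopontin, at 9.18, 177 and 360 CPM in Gli1- members, where 5 members held 72.7% of its UMIs at 7 dpi and 37.3% at 21 dpi. Of the 7 Hedgehog genes listed only Gli3 entered, without a 2-fold difference in the whole set, and with a ratio of -1.25 at Gli1+ 7 dpi in the stricter set.

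Fewer genes differed between the mural cells of the sorts at 21 dpi than before. Gli1 itself was at 4.40, 1.83 and 1.997 CPM among Gli1- members, against 18.9, 3.59 and 3.003 CPM among Gli1+ members (12, 6, 15, 21, 5 and 15 UMIs), so its level was higher in the Gli1+ members in uninjured tendon, and after injury it rested on too few UMIs to tell the sorts apart. Of 3963, 3581 and 3577 genes that entered for uninjured, 7 dpi and 21 dpi tendon, 424 (10.7%), 136 (3.8%) and 37 (1.03%) differed 2-fold or more between Gli1+ and Gli1- members. In uninjured tendon 176 were higher and 248 lower in Gli1+ cells, and of 21 contractile genes 8 were lower and none higher there. Acta2 (1965 against 4383 CPM), Tagln (1459 against 3962 CPM) and Klf2 (419 against 1750 CPM) were among the lower ones. The contractile median was -1.35 in cells without Myh11, where the Gli1+ uninjured cells are the least secure, and -0.20 in cells with Myh11. There Acta2 was within 2-fold (3823 against 5636 CPM), and in the stricter set 5 contractile genes were lower. Over all genes the majority turned as well, with 176 higher and 147 lower in the stricter set and 188 and 152 in cells with Myh11. At 21 dpi 23 were higher and 14 lower, and none of 19 contractile or 15 pericyte genes differed. The epidermal RNA in the Gli1+ members, 5318 CPM without injury and 2414 CPM at 21 dpi, stands beside these counts. In uninjured tendon the Gli1+ members held less of the endothelial genes (350 against 1293 CPM) and of the fibroblast and tendon genes (631 against 3357 CPM). The part of such RNA in the lower genes was not tested. With cells holding other cells' RNA left out, 66 genes differed at 7 dpi and 10 at 21 dpi. Of the 10, 1 was higher and 9 lower, so the direction of the 21 dpi counts turned. The uninjured Gli1+ set holds only 135 cells of mixed sex, and the 21 dpi sets 588 and 949 cells of 1 sex, so the step from 424 to 37 genes cannot be told apart from a difference in depth and sex. Over all kept uninjured cells, Xist was seen without Y-linked genes in 5163 of 7516 Gli1+ and 0 of 12113 Gli1- cells. The uninjured sorts thus did not hold the same mix of mice, and sort and preparation cannot be told apart there.

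The genes named here were compared with the stricter set as well. Of their 289 ratios over uninjured past 2-fold, 272 were past it in the stricter set in the same direction, where 294 were past it in all. The stricter set is part of the whole set, and some of these genes were chosen on their ratio in it. The count is therefore not an independent check. Beside those given above, the calls of Eng (-0.92 and -0.55 in Gli1- cells), Pkm (0.96 at Gli1- 7 dpi), Heyl (-0.50 and -0.45 in Gli1+ cells), Col4a2 (0.95 at Gli1+ 21 dpi) and Pde3a (-0.74 at Gli1+ 7 dpi) were lost there. Tagln (-1.06) and Cnn1 (-1.24) passed it at Gli1- 21 dpi, Pdgfrb (-1.01) and Ccn2 (1.41) at Gli1+ 7 dpi, and Cspg4 (-1.23), Cxcl12 (-1.48), Gucy1b1 (-1.05), Prkg1 (-1.16) and Cacna1c (-1.14) at Gli1+ 21 dpi.

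**Figure D5:**
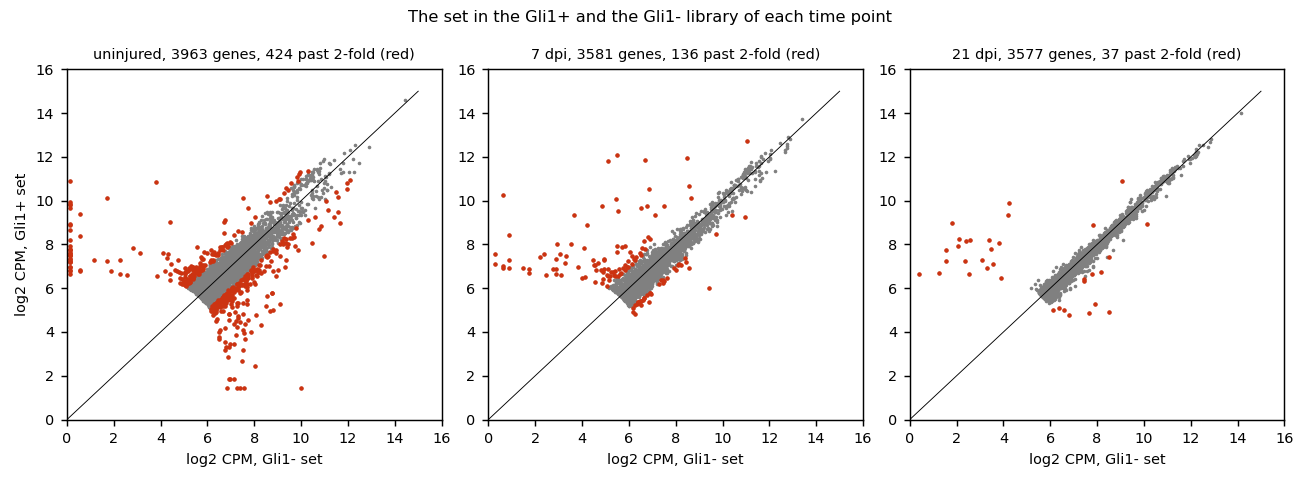
Log2 CPM of each gene in the Gli1+ set (vertical) against the Gli1- set (horizontal) of the same time point. Genes 2-fold or more apart are red and number 424 without injury, 136 at 7 dpi and 37 at 21 dpi. A gene under 3 UMIs in a library is drawn at the level of 3 UMIs.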

How the data were processed

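Single-cell RNA-seq was done with Chromium 3' v3 kits on sorted Gli1+ and Gli1- cells of Achilles tendon, uninjured and at 7 and 21 dpi, in 6 libraries. The deposited values are UMI counts of 33696 genes per barcode, unnormalized and unfiltered beyond cell calling. Per the file headers the authors made them with Cell Ranger 9.0.0, while the submitters' processing notes name Cell Ranger 3.1.0, STAR and mm10. The annotation release is not given in the sources used here.

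Barcodes were kept at 1000 UMIs, 200 genes and 5% mitochondrial UMIs, and members chosen as described. The members and gene lists were chosen with earlier results of these data known. Endothelial cells (Cdh5 of 2 or more UMIs), mesenchymal cells (Pdgfra of 2 or more) and immune cells (Ptprc of 2 or more) were compared, each without a UMI of the other excluding genes or the rule genes. UMIs were summed per library and class of cells and scaled to CPM. Intervals are 95% exact binomial (shares), exact Poisson (CPM) and binomial, conditional on the sum (ratios), in scipy 1.17.1, and cover counting error only. The intervals of the ratios were tested only on simulated Poisson counts. Such counts follow the model that the intervals assume and leave out the gathering of UMIs in few cells. A level of 0 was set to 3 counts for a ratio, which is then a lower bound. With 1 library per group there is no test. Comparisons needed 50 cells on both sides. Named are the rule, contractile and pericyte genes, extremes of the other lists, and genes with the 10 highest and 10 lowest ratios whose interval lies wholly past 2-fold (sex, mitochondrial and unnamed genes left out), also among genes 2-fold above both other cell types. A few genes that the rule names are not reported here. Further list members were chosen after their values were seen. Overlapping genes and near-identical copies, such as the hemoglobin genes, were taken as counted.

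Alternatives were TMM factors (edgeR 4.0.16 in R 4.3.3) and median of ratios, other limits on CPM and rule UMIs, cells thinned to 2000 UMIs (cells under it left out), and single classes. For the shares of mural and of smooth muscle cells, the rule was applied anew to the thinned counts, excluding genes included. A further one was removal of cells with over 0.5% of UMIs in lists of epidermal, immune, endothelial or skeletal muscle genes or 3 or more UMIs of Scx, Tnmd and Fmod. Doublets were kept in the set. As an alternative, Scrublet in scanpy 1.11.5 marked the highest-scoring 0.8% per 1000 cells. The stricter set, the genes 2-fold above other cells and the share among cells without Ptprc were chosen after seeing the data.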

Additional observations from a re-analysis of the deposited data

Results flagged for a closer look

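Of the listed and named genes, 3 had a log2 ratio over uninjured tendon past 2-fold in opposite directions in the sorts. Over all genes, 3 that were higher and 1 that was lower in Gli1+ cells at 7 dpi, and 4 that were higher there at 21 dpi, went the other way in Gli1- cells. The differences between the sorts were not tested, since each rests on 4 libraries of 1 per condition. Klf2, a flow-responsive transcription factor, was at 1750 CPM in uninjured and 854 CPM in 21 dpi Gli1- members (-1.04) and at 419 and 1070 CPM in Gli1+ members (1.35). The uninjured levels lay further apart than those at 21 dpi. Cntn5, a neural adhesion gene, was at 1009, 287 and 0.399 CPM in Gli1- members (-1.82 at 7 dpi) and 2.71, 256 and 0.801 CPM in Gli1+ members (6.57, 5.01 to 8.85, with 3 uninjured UMIs). Its endothelial levels, 889, 344 and 0.286 CPM and 1.74, 201 and 0 CPM, and its mesenchymal levels followed the same order of libraries. Sprr1b, an epidermal gene, was at least 6.81 on the log2 scale higher at Gli1- 7 dpi and at -1.25 at Gli1+ 7 dpi, and the summed epidermal genes were at 714 CPM against 38.5 CPM in uninjured Gli1- members and 14712 against 5318 CPM in Gli1+ members.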

How the results depend on the processing

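No paired analysis was possible because the labels give no replicate numbers and each group is 1 library. The limits are those of 6 pooled libraries, unequal depth of the members, a rule of 3 genes with 1 UMI deciding the class and few Gli1+ uninjured cells. A further limit is RNA of epidermis, fibroblasts and endothelium in the members. The causes of the shifts below were not tested. Differences are in percentage points, injured minus uninjured.

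For the share of mural cells, the Gli1+ 7 dpi difference (0.38) was -0.172 with thinned cells, -1.03 with cells holding other cells' RNA left out and -2.02 among cells without Ptprc. The Gli1+ 21 dpi difference (3.7) was 4.32 with 1 UMI of the excluded genes allowed, 3.11 with those cells left out and 1.3 without Ptprc. The Gli1- 7 dpi difference (-2.13) was -1.36 with 2 of 3 genes seen, -4.22 with 1 UMI allowed and -1.46 with those cells left out. The Gli1- 21 dpi difference (1.23) was 2.2 thinned, 2.04 at 5 rule UMIs, 2.06 with 2 of 3 genes seen and -0.782 with 1 UMI allowed. For the smooth muscle share, the Gli1+ 21 dpi difference (12.8) was -12.7 thinned, 2.43 at 5 UMIs, 2.76 with 2 of 3 genes and 3.35 in the stricter set. The Gli1- 7 dpi difference (-0.109) was -6.41, -6.08, -6.13 with other cells' RNA removed and -7.38 in the stricter set, and the Gli1- 21 dpi one (10.4) was -6.06, 1.75, 4.94 and 1.31, and 15.8 with 2 Myh11 UMIs asked for. The Gli1+ 7 dpi smooth muscle difference (-0.639) moved by less than its interval throughout.

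Genes past 2-fold numbered 865, 620, 1038 and 787 (Gli1- 7 and 21 dpi, Gli1+ 7 and 21 dpi). At a mean of 10 CPM they numbered 2158, 1808, 2611 and 2223, at 200 CPM 229, 164, 231 and 171, and among genes above other cells, chosen with the direction of the ratio, 117, 112, 184 and 186. In Gli1- 21 dpi pericytes alone they numbered 1097. With median of ratios scaling, 458 and 380, 391 and 254, 556 and 412, and 502 and 274 were higher and lower.

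Of named genes called 2-fold apart, in pericytes alone Cacna1c (0.31), Cxcl10 (0.32), Cxcl12 (0.04), Gucy1b1 (0.03), Prkg1 (0.08) and Myocd (2.32) at Gli1+ 7 dpi, Myocd (0.70) and Nr4a1 (0.21) at Gli1- 7 dpi, Flna (0.32) and Tpm2 (0.32) at Gli1- 21 dpi and Sox6 (0.58) at Gli1+ 21 dpi changed sign. The Myocd value at Gli1+ 7 dpi rests on very few uninjured UMIs, as given above. At Gli1+ 7 dpi the sign also changed for Hba-a1 (3.95, 3.77 and 3.76) and Hbb-bs (3.12, 3.53 and 3.28) with 2 of 3 genes seen, without doublets and in smooth muscle alone. Mki67 (0.66 as the mean of cells, 5.13 in smooth muscle, 0.09 in the stricter set, 3.42 in smooth muscle at 21 dpi) and Sprr1b (0.92 as the mean of cells, 3.49 with 2 of 3 genes, 2.82 without other cells' RNA, 3.03 in smooth muscle, 2.32 in the stricter set, 1.01 with 2 of 3 genes at 21 dpi) did so as well. Under TMM and median of ratios scaling no named gene called 2-fold apart changed sign. Under TMM scaling some calls near 2-fold, such as that of Kcnj8 at 21 dpi, came within it.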
